A study of Mus musculus with 6 samples.

Results

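The glycolysis and lactate export genes are 37 mouse genes for glucose uptake, the glycolytic enzymes, lactate production and export, the entry of pyruvate into mitochondria and its return towards glucose. They were taken by gene symbol from a count table of 53465 genes, in which they filled 38 rows because 2 rows carry the symbol Aldoa. RNA was sequenced from primary liver tumour cell lines of C57BL/6 mice, 3 labelled Myc_Utx (2A, 2B and 2D), from Kdm6a-deficient tumours, and 3 labelled Myc_p53 (1, 2 and 3), from p53 knockout tumours. Each line came from the tumour of a different adult female mouse. Tumours of both groups had been started by injecting a Myc transposon driven by the EF1a promoter together with Cas9 and a guide RNA, so both groups carried the Myc transgene. The comparison asked how transcription differed between the genotypes. Because the reference lines lack Trp53 and no line without either lesion was included, loss of Kdm6a and presence of Trp53 cannot be told apart in any difference below.

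Glycolysis splits glucose into pyruvate in the cytosol and yields ATP without oxygen. Most of its steps are carried out by several isozymes, encoded by separate genes, that differ between tissues in regulation and affinity. Growing tumour cells often turn pyruvate into lactate with lactate dehydrogenase and release it through monocarboxylate transporters, whereas normal hepatocytes use liver isozymes such as the L-type pyruvate kinase and can make glucose as well as break it down.

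Between 4656103 and 6937497 reads per line were counted. Levels are given as CPM, the counts of a gene scaled to library size with the trimmed mean of M values (TMM). Trp53 lay between 274.6 and 294.1 CPM in Myc_Utx lines and between 32.2 and 35.6 in Myc_p53 lines. Kdm6a overlapped between the groups, at 39.5 to 48.8 CPM in Myc_Utx and 42.3 to 69.2 CPM in Myc_p53 lines (log2 fold change -0.39, adjusted p = 0.243, edgeR), so its loss cannot be read from the counts. The methods of the study name lines with a guide against Mll3 (Kmt2c) for the RNA sequencing, and Kmt2c was lower in the lines labelled Myc_Utx (log2 fold change -0.73, adjusted p = 0.029, edgeR). Alb, the main secreted protein of hepatocytes, had 4 to 26 counts in any line, and Serpina1a and Cps1 were at 0 in every Myc_Utx line. The 10 hepatocyte markers found in the table summed to 26.6, 94.1 and 2.88 CPM in Myc_Utx 2A, 2B and 2D and to 1214, 52.6 and 823.1 CPM in Myc_p53 1, 2 and 3, where most of the sum was Krt8 and Krt18, keratins of simple epithelia. Hnf4a, a liver transcription factor on that list, had at most 0.595 CPM in Myc_Utx lines and 10.1, 1.48 and 6.67 CPM in Myc_p53 lines. Only 2 of the 10 hepatocyte markers were lower in every Myc_Utx line. At most 3 counts were found for 3 of the 10 in every Myc_Utx line, and likewise for 3 in every Myc_p53 line. The 11 macrophage markers examined summed to 2.78 to 6.15 CPM in Myc_Utx lines and 41.1 to 112.1 CPM in Myc_p53 lines, and 8 of them were lower in every Myc_Utx line. Adgre1, C1qc, Clec4f, Marco and Ptprc were at 0 in every Myc_Utx line.

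Transcripts of the glycolytic enzymes were more abundant in Myc_Utx lines at every step from hexokinase to lactate dehydrogenase. The genes of these 11 steps together took 1.55%, 1.30% and 1.76% of all counts in Myc_Utx 2A, 2B and 2D. In Myc_p53 1, 2 and 3 they took 0.889%, 0.862% and 0.809%. The groups did not overlap, and their means were 1.54% ± 0.228 and 0.853% ± 0.0408 (SD, n = 3 each; two-sided exact permutation p = 0.1, the smallest p that 3 lines against 3 can give). Summed over isozymes, each of the 11 steps lay above every Myc_p53 line in every Myc_Utx line. The difference ran from 1.46-fold for phosphoglycerate mutase to 2.36-fold for aldolase. Taken gene by gene, 21.1% of all 11510 genes tested also lay above every Myc_p53 line in every Myc_Utx line. Within the Myc_Utx group, 2D was the highest line at 10 of these steps and 2B the lowest at 10. No Myc_p53 line held the top place at more than 5 steps.

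**Figure D1:**
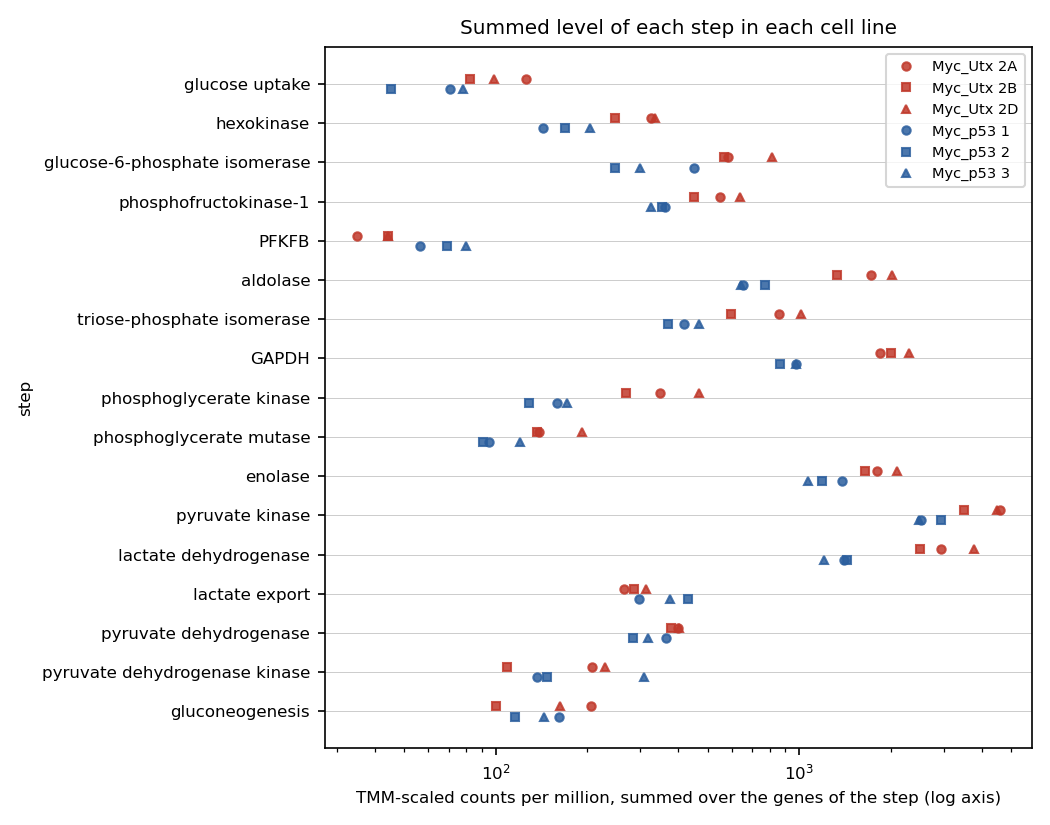
Summed level of each step of the pathway in each of the 6 cell lines, in TMM-scaled CPM on a log axis, with red for Myc_Utx and blue for Myc_p53 and 1 point per line. The red points lie to the right of the blue ones at all 11 steps from hexokinase to lactate dehydrogenase, whereas the PFKFB sum lies to the left and lactate export, pyruvate dehydrogenase kinase and gluconeogenesis overlap.

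In the quasi-likelihood test of edgeR, 8 of the 33 genes of the set that passed the filter on low counts were higher in Myc_Utx lines at an adjusted p under 0.05, against 6.99% of all 11510 genes tested. They were Aldoa, Tpi1, Gapdh, Pgk1, Eno1, Pkm, Ldha and Pdk3. Eno2 and Slc16a3 were lower, 2 genes, against 7.69% of all genes tested. Every Myc_Utx line lay above every Myc_p53 line for 15 of the 33 genes, against 21.1% of all genes tested, and below for 4, against 20.9%. The median log2 fold change of the 33 genes was 0.34 and that of all genes tested was -0.01. Slc2a2, Slc2a3, Pklr and Fbp1 did not pass the filter. Eno2 and Slc16a3 passed it through the group in which they were high.

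DESeq2, which gave an adjusted p for 36 of the genes, called 11 higher, against 9.17% of all genes, adding Gpi1, Pfkl and Pgam1. It called 5 lower, against 11.3% of all genes, adding Slc2a3, Pfkfb3 and Pklr. The calls varied with the line left out. With Myc_Utx 2A, 2B or 2D left out, 0, 1 and 0 genes of the set were called higher, and with Myc_p53 1, 2 or 3 left out, 5, 8 and 1 were. The numbers called lower were 0, 0, 0, 3, 2 and 0 in the same order, and the counts over all genes ran from 3 higher and 1 lower without Myc_Utx 2A to 836 higher and 1117 lower without Myc_p53 2, beside 805 and 885 with all lines. At an unadjusted p under 0.05 in edgeR, between 11 and 15 genes of the set were higher and between 3 and 6 lower in these 6 fits, of 33 to 35 tested. Over all genes the same threshold gave 1450 to 2017 higher and 1675 to 2337 lower, of 11714 to 12127 tested.

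**Figure D2:**
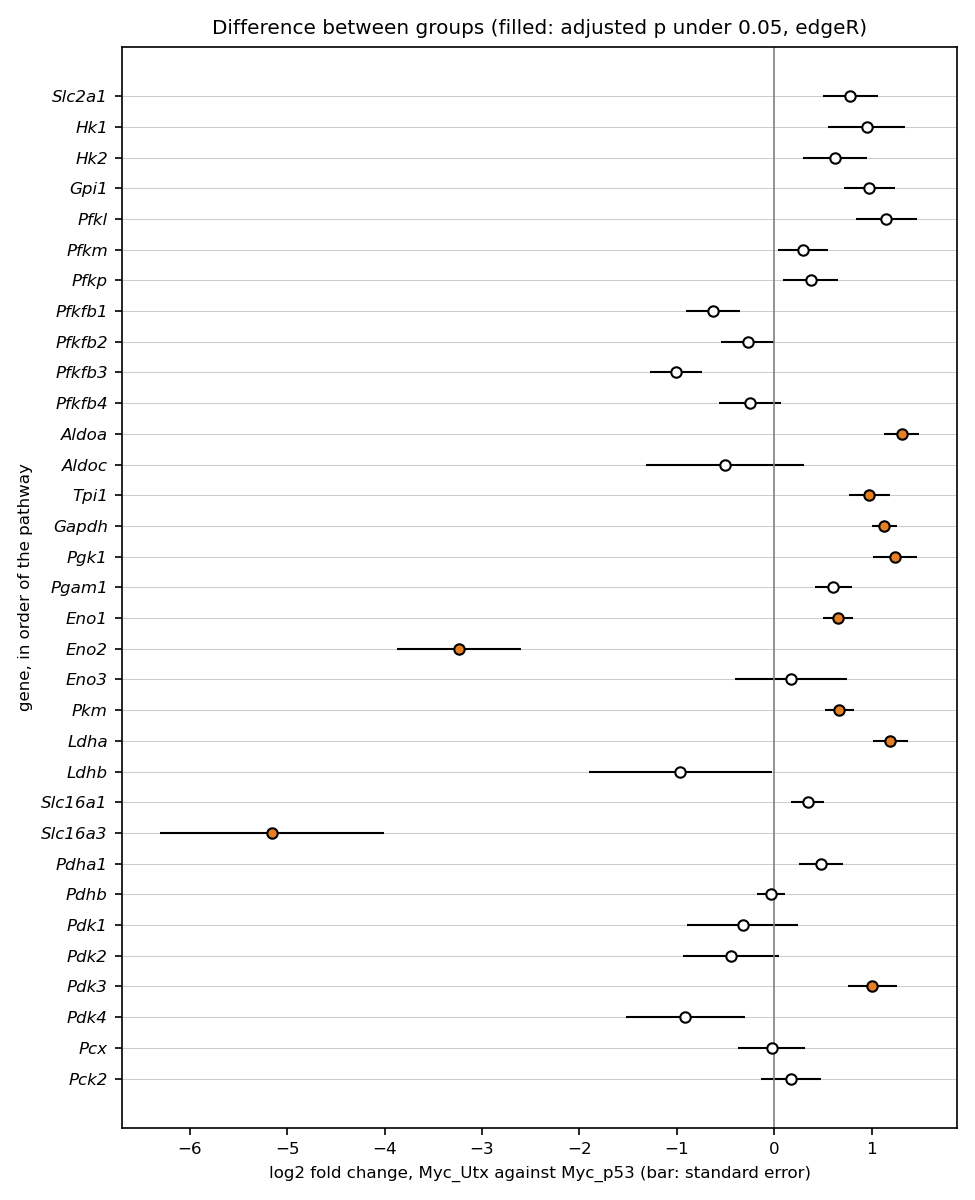
log2 fold change of the 33 tested genes, Myc_Utx against Myc_p53, in order of the pathway, with bars for the standard error and filled points for an adjusted p under 0.05 in edgeR. From aldolase to lactate dehydrogenase the abundant isozymes sit between 0.61 and 1.31, while Eno2 at -3.24 and Slc16a3 at -5.16 stand far to the left.

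The middle and lower part of glycolysis held the steadiest differences. Aldoa, the aldolase that cleaves fructose 1,6-bisphosphate (chromosome 7: 126795234 to 126800751, minus strand, GRCm38), had 1711, 1328 and 2019 CPM in Myc_Utx 2A, 2B and 2D and 648.3, 757.1 and 637.2 CPM in Myc_p53 1, 2 and 3. Its groups lay far apart, and the log2 fold change was 1.31 ± 0.18 (SE; adjusted p = 0.0164, edgeR). The second row named Aldoa, an upstream locus at 126800790 to 126809108, had only 1.14 to 3.14 CPM and did not pass the test (log2 fold change 0.11, adjusted p = 0.884, edgeR). Tpi1, which interconverts the triose phosphates, had 855.5, 598.2 and 1011 CPM against 416.5, 370.2 and 468.0 CPM (log2 fold change 0.97 ± 0.21, adjusted p = 0.0332, edgeR).

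Gapdh, which makes NADH and 1,3-bisphosphoglycerate, was the tightest of the set. It had 1841, 2013 and 2301 CPM in Myc_Utx lines and 977.5, 862.0 and 978.4 CPM in Myc_p53 lines, and its log2 fold change was 1.13 ± 0.13 (adjusted p = 0.013, edgeR). Gapdh is widely used as a reference transcript, and here its group means differed by 2.18-fold. Pgk1, the first ATP-yielding enzyme of the pathway, had 348.5, 269.8 and 469.4 CPM against 159.3, 129.3 and 171.7 CPM (log2 fold change 1.24 ± 0.23, adjusted p = 0.0234, edgeR). Pgam1, the mutase that follows, had 138.7, 136.4 and 192.2 CPM against 95.3, 91.0 and 120.6 CPM. Its groups did not overlap, but it missed the threshold (log2 fold change 0.61 ± 0.19, adjusted p = 0.0733, edgeR).

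Eno1, the ubiquitous enolase, had 1632, 1574 and 2052 CPM in Myc_Utx lines and 1263, 1058 and 1023 CPM in Myc_p53 lines (log2 fold change 0.65 ± 0.15, adjusted p = 0.0393, edgeR). Pkm, which encodes the M1 and M2 forms of pyruvate kinase by alternative splicing, was the most counted gene of the set. It had 4584, 3501 and 4478 CPM against 2516, 2927 and 2480 CPM, a log2 fold change of 0.66 ± 0.15 (adjusted p = 0.0363, edgeR). Counts per gene do not separate M1 from M2. Of the splicing factors known to favour the M2 form, Hnrnpa1 and Hnrnpa2b1 were higher in Myc_Utx lines, both by 0.65 on the log2 scale (adjusted p = 0.0278 for each, edgeR), and the value for Ptbp1 was 0.36 (adjusted p = 0.0792).

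Ldha, which turns pyruvate into lactate and restores NAD+, had 2920, 2502 and 3758 CPM in Myc_Utx lines and 1398, 1428 and 1197 CPM in Myc_p53 lines. The lowest Myc_Utx line was well above the highest Myc_p53 line, and the log2 fold change was 1.19 ± 0.18 (adjusted p = 0.0175, edgeR). For Aldoa, Tpi1, Gapdh, Pgk1, Eno1, Pkm and Ldha the log2 fold change stayed between 0.54 and 1.47 whichever line was left out. Their adjusted p then ran from 0.0149 for Gapdh without Myc_p53 2 to 0.117 for Pkm without Myc_Utx 2D, and Tpi1 missed the threshold in all 6 fits. Offsets for gene length and GC content, added because the log2 fold change of all genes fell with length (Spearman's rho across genes -0.249), left all 7 past the threshold. Eno1 missed the threshold with total counts (adjusted p = 0.0504). The near-identical copies of Eno1, Gapdh, Pgam1, Ldha, Aldoa, Tpi1 and Pgk1 listed in the table had at most 5 counts in a line.

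The promoters of Ldha and Pgk1, which were higher, are shown beside those of the transporters Slc16a1 and Slc16a3 and of Eno2, because these 5 genes span the range of responses described here. Each window runs from 250 bases before to 50 after a transcription start in RefSeq (GRCm38.p6) and is written 5′ to 3′ on the strand of the gene. Capitals mark CACGTG, the E-box bound by Myc and by the carbohydrate response factors, and ACGTG, the core of the hypoxia response element, on either strand. Every CACGTG also holds ACGTG on both strands. Ldha is at chr7:46845554-46845853 (plus strand), Pgk1 at chrX:106186850-106187149 (plus), Slc16a1 at chr3:104638414-104638713 (plus), Slc16a3 at chr11:120948817-120949116 (plus) and Eno2 at chr6:124769624-124769923 (minus).
Ldha: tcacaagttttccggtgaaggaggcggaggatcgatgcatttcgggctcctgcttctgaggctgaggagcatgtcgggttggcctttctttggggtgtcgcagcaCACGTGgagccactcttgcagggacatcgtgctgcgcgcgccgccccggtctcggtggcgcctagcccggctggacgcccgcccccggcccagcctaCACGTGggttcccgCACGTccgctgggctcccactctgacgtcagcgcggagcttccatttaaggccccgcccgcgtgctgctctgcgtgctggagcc
Pgk1: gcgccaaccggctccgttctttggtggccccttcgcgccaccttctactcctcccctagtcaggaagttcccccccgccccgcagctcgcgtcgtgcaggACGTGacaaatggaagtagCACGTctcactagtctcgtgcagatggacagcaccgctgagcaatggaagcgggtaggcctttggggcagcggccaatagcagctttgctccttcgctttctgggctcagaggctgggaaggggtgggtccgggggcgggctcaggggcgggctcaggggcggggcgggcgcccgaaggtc
Slc16a1: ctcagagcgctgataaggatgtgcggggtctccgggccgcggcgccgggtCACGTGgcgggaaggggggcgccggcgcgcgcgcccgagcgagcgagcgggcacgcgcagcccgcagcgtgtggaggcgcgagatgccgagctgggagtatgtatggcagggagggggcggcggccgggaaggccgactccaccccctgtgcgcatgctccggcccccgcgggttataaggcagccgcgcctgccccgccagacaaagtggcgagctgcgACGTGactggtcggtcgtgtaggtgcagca
Slc16a3: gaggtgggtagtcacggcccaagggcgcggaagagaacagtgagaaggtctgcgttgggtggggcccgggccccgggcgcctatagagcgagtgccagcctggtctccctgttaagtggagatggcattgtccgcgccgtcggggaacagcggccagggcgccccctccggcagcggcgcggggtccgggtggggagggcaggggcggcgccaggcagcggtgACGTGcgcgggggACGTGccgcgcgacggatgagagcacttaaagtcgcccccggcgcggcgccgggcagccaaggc
Eno2: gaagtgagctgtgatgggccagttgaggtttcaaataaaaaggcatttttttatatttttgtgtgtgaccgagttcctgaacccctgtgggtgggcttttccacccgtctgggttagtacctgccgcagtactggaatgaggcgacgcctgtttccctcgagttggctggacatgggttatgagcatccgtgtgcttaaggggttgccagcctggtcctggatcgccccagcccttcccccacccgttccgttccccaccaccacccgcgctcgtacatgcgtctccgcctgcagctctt
The Ldha window shown held 2 E-boxes, at bases -145 and -48 from the start, and the Slc16a1 window held 1, at -200. A second RefSeq window of Ldha, at chr7:46846832-46847131, held neither motif. The Pgk1 and Slc16a3 windows each held 2 copies of ACGTG outside an E-box, and the Eno2 window held neither motif. RefSeq windows were found for 36 of the 37 genes, 57 in all. Of these, 7 (12.3%) held CACGTG and 23 (40.4%) held ACGTG, against 7.2% and 19.6% of all 32851 promoter windows. Windows of 1 gene can overlap, and 2 of those of Aldoa hold the same ACGTG match, so windows are not independent. The genes with CACGTG in a window were Ldha, Pcx, Pdk2, Pfkfb2, Pfkfb3, Pfkm and Slc16a1, of which only Ldha was called. A match of letters does not show that a factor binds there.

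In the upper part of the pathway Slc2a1, Hk1, Hk2, Gpi1 and Pfkl were above every Myc_p53 line in every Myc_Utx line, with wider spread, and none of them passed the test of edgeR. Slc2a1, the GLUT1 glucose transporter, had 126.0, 81.8 and 98.9 CPM in Myc_Utx lines and 64.8, 38.9 and 74.5 CPM in Myc_p53 lines. Its groups did not overlap, though the gap between Myc_Utx 2B and Myc_p53 3 was small, and it did not pass the test (log2 fold change 0.78 ± 0.28, adjusted p = 0.103, edgeR). Slc2a2, the GLUT2 transporter of hepatocytes, had 1, 1 and 0 counts in Myc_Utx and 6, 3 and 19 counts in Myc_p53 lines, a ratio of 11.1 in favour of Myc_p53 with a 95% exact counting interval of 2.80 to 96.1. Without Myc_p53 3 the ratio was 5.70. Slc2a3, the high-affinity GLUT3 transporter, had 0, 3 and 0 counts against 33, 32 and 8 counts, a ratio of 19.3 (6.34 to 95.7). The ratio was 12.8 without Myc_Utx 2A. Without Myc_Utx 2B it was 12.3, with a floor of 3 counts in place of 0 over the group. These intervals cover counting error between these libraries only. Per kilobase, GLUT1 transcripts made up 99.8% ± 0.247 of the 3 transporters in Myc_Utx lines (SD, n = 3) and 92.4% to 97.1% in Myc_p53 lines. The hepatocyte marker sum lay at 2.88 to 94.1 CPM in Myc_Utx and 52.6 to 1214 CPM in Myc_p53 lines. Within the Myc_p53 group, this sum and Slc2a2 were both lowest in line 2. The sum was highest in line 1, however, and Slc2a2 in line 3. The part of hepatocyte markers in the level of Slc2a2 was not tested. Slc2a3 is also made by macrophages, whose markers summed to at most 6.15 CPM in Myc_Utx and at least 41.1 CPM in Myc_p53 lines. Among Myc_p53 lines the macrophage sum was lowest in line 2 (41.1 CPM), where Slc2a3 was highest (5.90 CPM). That sum was highest in line 3 (112.1 CPM), where Slc2a3 was lowest (1.135 CPM). The part of macrophages in the level of Slc2a3 was not tested.

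Hk1, the housekeeping hexokinase, had 212.8, 141.4 and 186.2 CPM against 43.1, 126.0 and 110.8 CPM (log2 fold change 0.95 ± 0.40, adjusted p = 0.143, edgeR). Hk2, the hexokinase typical of tumours, had 113.1, 106.4 and 147.8 CPM against 100.5, 43.0 and 94.2 CPM (log2 fold change 0.63 ± 0.33, adjusted p = 0.223). Neither gene overlapped between the groups, by a narrow margin, and in each a different Myc_p53 line was far below the others, line 1 for Hk1 and line 2 for Hk2. Per kilobase, Hk1 made up 56.8%, 48.2% and 46.8% of the pair in Myc_Utx lines but 23.1%, 67.2% and 45.1% in Myc_p53 lines, so the mix varied more within the Myc_p53 group than between the groups (exact permutation p = 0.7). Hk3, a further hexokinase, was at 0 in all Myc_Utx lines and had only 11 counts summed over the Myc_p53 lines.

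Gpi1, the isomerase of glucose 6-phosphate, had 583.3, 566.1 and 811.6 CPM against 450.4, 247.7 and 298.6 CPM, without overlap (log2 fold change 0.98 ± 0.26, adjusted p = 0.0523, edgeR). Of the phosphofructokinases, which set the pace of glycolysis, the liver type Pfkl had 258.8, 170.9 and 306.7 CPM against 71.9, 144.8 and 115.5 CPM (log2 fold change 1.15 ± 0.31, adjusted p = 0.0559). The muscle type Pfkm and the platelet type Pfkp overlapped between the groups, with log2 fold changes of 0.29 (adjusted p = 0.449) and 0.37 (adjusted p = 0.387). Pfkl made up 46.3%, 37.7% and 47.7% of the 3 types per kilobase in Myc_Utx lines and 23.2%, 33.8% and 35.1% in Myc_p53 lines. This share did not overlap (exact permutation p = 0.1, adjusted p = 0.225 over 27 isozyme shares), but it did with principal transcript lengths or when counts were not divided by length.

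**Figure D3:**
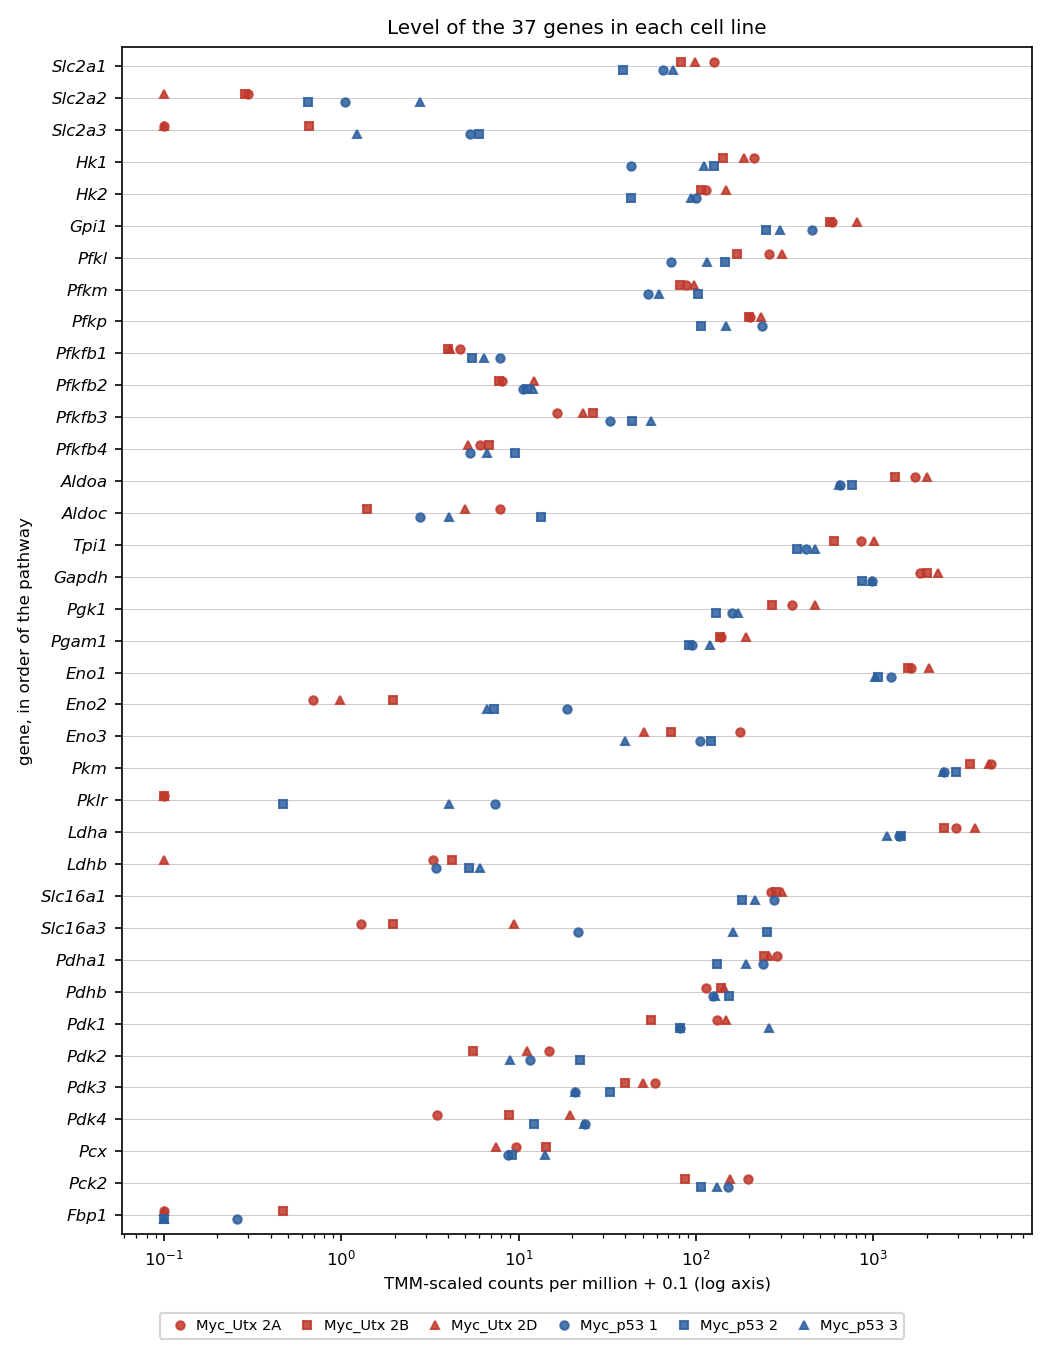
Level of each of the 37 genes in each line, in TMM-scaled CPM plus 0.1 on a log axis, with red for Myc_Utx and blue for Myc_p53 and 1 point per line. Pkm, Ldha, Gapdh, Aldoa and Eno1 lie at the right with red beyond blue, and for Slc16a3, Eno2, Slc2a3 and Pklr every blue point lies beyond the red ones.

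The PFKFB enzymes make and degrade fructose 2,6-bisphosphate, the activator of phosphofructokinase-1, and their sum was lower in every Myc_Utx line. Pfkfb3, the isozyme with the strongest kinase activity, had 16.5, 26.1 and 22.8 CPM in Myc_Utx and 32.7, 43.5 and 55.5 CPM in Myc_p53 lines, without overlap (log2 fold change -1.01 ± 0.27, adjusted p = 0.0515, edgeR). DESeq2 put it past the threshold (adjusted p = 0.0123), as did edgeR with at least 10 counts in every line, with DESeq2 size factors or with total counts. In edgeR it missed with length and GC offsets (log2 fold change -0.80, adjusted p = 0.0902) and with no filter (adjusted p = 0.0555). With a line left out it passed only without Myc_p53 1, and the adjusted p reached 0.143. Pfkfb1, the liver isozyme, did not overlap either, at 3.91 to 4.57 CPM against 5.35 to 7.71 CPM (adjusted p = 0.163). Pfkfb2 and Pfkfb4 overlapped and had log2 fold changes of -0.27 and -0.25.

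Among the rarer isozymes, Eno2 was lower where Eno1 was higher. Eno2, the neuronal enolase, had 0.595, 1.86 and 0.887 CPM in Myc_Utx and 18.7, 7.19 and 6.53 CPM in Myc_p53 lines. Eno2 reached the filter on low counts in 3 Myc_p53 lines and 0 Myc_Utx lines, so it was tested through the group in which it was high. The groups did not overlap, with Myc_p53 1 the highest, and the log2 fold change was -3.24 ± 0.64 (adjusted p = 0.0274, edgeR). It ran from -3.82 to -2.59 with a line left out and lost the threshold without Myc_Utx 2A, 2B or 2D or Myc_p53 3, with an adjusted p of up to 0.105. Even in Myc_p53 lines Eno2 made up only 0.850% ± 0.419 of enolase per kilobase. Eno3, the muscle enolase, spread widely within both groups, from 50.5 to 176.6 CPM and from 39.6 to 121.8 CPM (log2 fold change 0.17 ± 0.58, adjusted p = 0.854).

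Pklr, the pyruvate kinase of liver and red cells, had 0 counts in every Myc_Utx line and 46, 2 and 28 counts in Myc_p53 1, 2 and 3. The lower end of the 95% exact counting interval for its ratio, Myc_p53 over Myc_Utx, was 15.9. With a floor of 3 counts in place of 0 over the Myc_Utx group, the ratio was 20.1. With a line left out this floored ratio ran from 12.0 without Myc_p53 1 to 27.5 without Myc_p53 2. At the same floor, Pklr was at most 0.0160% of pyruvate kinase counts in Myc_Utx 2B, the line with the fewest. Erythroid markers were near 0, with at most 0.993 CPM summed in any line. The hepatocyte marker sum followed the same order in the Myc_p53 lines, at 1214, 52.6 and 823.1 CPM, and was 2.88 to 94.1 CPM in Myc_Utx lines, and its part in the level of Pklr was not tested. Mlxipl encodes the carbohydrate response factor ChREBP, known to act on Pklr in liver. It had 2, 2 and 0 counts in Myc_Utx lines and 88.4, 8.49 and 3.26 CPM in Myc_p53 1, 2 and 3. Both genes were highest in Myc_p53 1, but among these lines Mlxipl was lowest in line 3 and Pklr in line 2. The part of Mlxipl in the level of Pklr was not tested. The ratio of Mlxipl counts was 125.0 in favour of Myc_p53 (95% exact counting interval 48.6 to 460.2). It rested mostly on Myc_p53 1, being 20.6 without that line and 192.5 without Myc_p53 3. Mlxipl was called in edgeR (adjusted p = 0.0447) but had passed the filter through the Myc_p53 lines alone. Aldoc, the brain aldolase, overlapped between groups at 1.30 to 7.74 and 2.67 to 13.3 CPM and made up under 1.6% of the summed Aldoa and Aldoc in every line. Ldhb, which favours the return of lactate to pyruvate, had 3.18, 4.10 and 0 CPM against 3.30, 5.17 and 5.96 CPM, and Ldha made up at least 99.0% of the pair per kilobase in every line.

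Of the 33 genes tested in edgeR, the lactate exporter Slc16a3 had the log2 fold change furthest from 0. It had reached the filter in 3 Myc_p53 lines but in only 1 Myc_Utx line. The ranking holds only for genes past that filter. In DESeq2, which covered 36 genes of the set, another gene was lowest, at -6.70 against -5.125 for Slc16a3. Slc16a3 (MCT4, chromosome 11: 120948480 to 120960868, plus strand), which is suited to releasing lactate, had 1.19, 1.86 and 9.31 CPM in Myc_Utx 2A, 2B and 2D and 21.6, 250.1 and 161.1 CPM in Myc_p53 1, 2 and 3. The groups did not overlap, but Myc_p53 1 was nearer to Myc_Utx 2D than to the other Myc_p53 lines. The log2 fold change was -5.16 ± 1.15 (adjusted p = 0.0357, edgeR). It ran from -6.52 without Myc_Utx 2D to -4.50 without Myc_p53 2 and passed the threshold in only 1 of these 6 fits, without Myc_p53 1. Slc16a1 (MCT1), which carries lactate both ways, had 263.8, 283.4 and 303.6 CPM against 274.4, 181.2 and 215.6 CPM, and overlapped (log2 fold change 0.34 ± 0.17, adjusted p = 0.199).

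Slc16a3 therefore made up 0.374%, 0.544% and 2.49% of the 2 transporters per kilobase in Myc_Utx lines and 6.13%, 53.5% and 38.3% in Myc_p53 lines. The means were 1.14% ± 1.17 and 32.7% ± 24.2, a difference of -31.5 points without overlap (exact permutation p = 0.1, adjusted p = 0.225 over 27 shares). The sum of both transporters overlapped between the groups. Bsg, the chaperone both need to reach the membrane, overlapped at 412.0 to 685.5 and 297.1 to 428.7 CPM (adjusted p = 0.0945, edgeR), and the related Slc16a7 and Slc16a8 stayed under 1 CPM in every line. The macrophage marker sum ranged from 2.78 to 6.15 CPM in Myc_Utx and from 41.1 to 112.1 CPM in Myc_p53 lines, where it was lowest in line 2, the line with the most Slc16a3. The fibroblast marker sum was 41.7, 3155 and 718.3 CPM in the same lines and 1944 to 2680 CPM in Myc_Utx lines. Their part in the level of Slc16a3 was not tested, and in bulk RNA a smaller share of cells of one kind and less RNA per cell cannot be told apart.

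**Figure D4:**
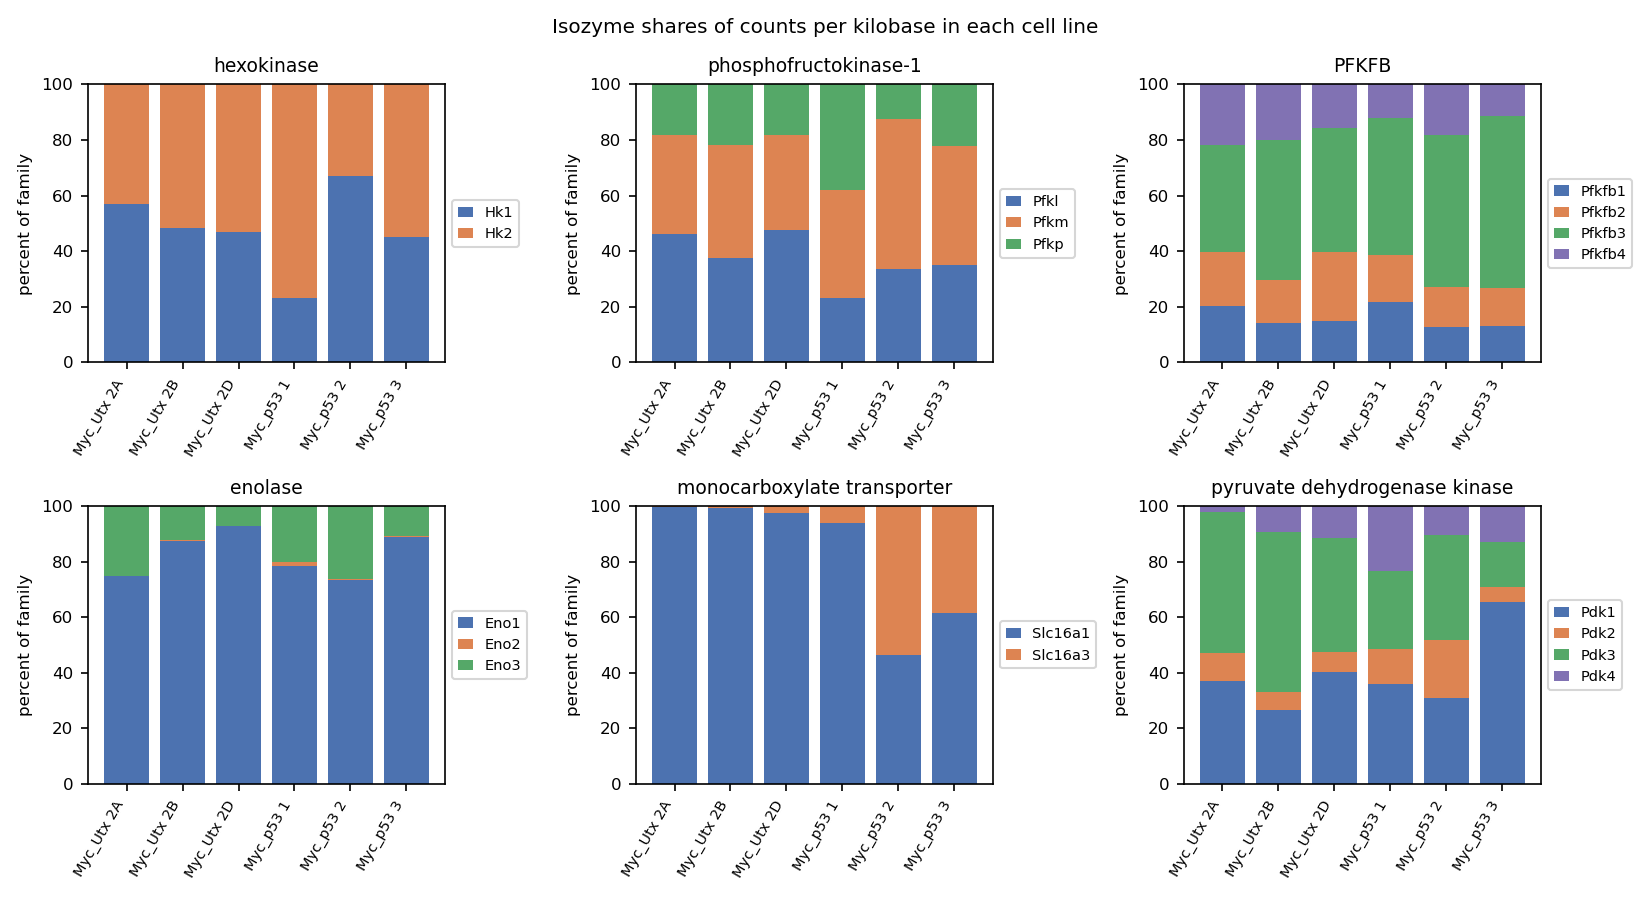
Isozyme shares of 6 families in each cell line, as percent of the family sum of TMM-scaled CPM per kilobase, 1 stacked bar per line. Slc16a3 takes 53.5% and 38.3% of its family in Myc_p53 2 and 3 and at most 2.49% in Myc_Utx lines, while the hexokinase mix differs most among the Myc_p53 lines.

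At the gate to the mitochondrion, Pdk3, one of the kinases that switch off pyruvate dehydrogenase, had 59.0, 39.7 and 49.9 CPM in Myc_Utx and 20.8, 32.7 and 20.6 CPM in Myc_p53 lines (log2 fold change 1.01 ± 0.25, adjusted p = 0.0473, edgeR). This was the least firm of the 8 higher genes: it missed the threshold with length and GC offsets (adjusted p = 0.0814), with DESeq2 size factors or total counts, and without any line but Myc_p53 2, with an adjusted p of up to 0.129. Pdk3 made up 50.7%, 57.8% and 40.9% of the 4 kinases per kilobase in Myc_Utx lines and 28.1%, 37.9% and 16.0% in Myc_p53 lines, without overlap (exact permutation p = 0.1, adjusted p = 0.225), whereas the groups overlapped by counts alone. Pdk1, a known target of hypoxia signalling, ranged from 55.4 to 148.5 CPM and from 80.8 to 256.3 CPM, with Myc_p53 3 far above the rest. Pdk2 and Pdk4 overlapped as well, and the sum of the 4 kinases did not separate the groups (exact permutation p = 0.8).

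Of the subunits of pyruvate dehydrogenase E1, Pdha1 had 285.8, 240.2 and 256.4 CPM against 239.7, 130.6 and 190.3 CPM, with Myc_Utx 2B and Myc_p53 1 almost equal (log2 fold change 0.48, adjusted p = 0.179, edgeR). Pdhb lay at 114.1 to 144.5 and 125.3 to 152.9 CPM (log2 fold change -0.03, adjusted p = 0.882). Pcx, which makes oxaloacetate from pyruvate, lay at 7.31 to 14.2 and 8.65 to 13.9 CPM, and Pck2, the mitochondrial step to phosphoenolpyruvate, at 86.1 to 196.5 and 106.4 to 152.4 CPM. Neither passed the test (adjusted p = 0.965 and 0.720). Fbp1, which reverses the phosphofructokinase step in liver, had at most 2 counts in a line and the cytosolic Pck1 at most 0.559 CPM, so both were at or near the detection limit of this depth in either group.

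Further genes of sugar metabolism were called in both directions. Of 61 listed genes, 37 passed the filter, 4 were called higher and 2 lower, against 6.99% and 7.69% of all genes tested, and the median log2 fold change was 0.07. Pgp, which clears toxic by-products of glycolysis, was higher, with 42.7, 52.6 and 68.5 CPM against 19.7, 20.9 and 22.1 CPM (log2 fold change 1.38 ± 0.21, adjusted p = 0.0175, edgeR). Bpgm, which diverts 1,3-bisphosphoglycerate, was higher by 0.84 (adjusted p = 0.0433) and the urate and sugar transporter Slc2a9 by 1.98 (adjusted p = 0.0282). Galm, the aldose mutarotase, was lower by 3.51 on the log2 scale (adjusted p = 0.0478) and Pdpr, which regulates the pyruvate dehydrogenase phosphatase, by 0.60 (adjusted p = 0.0447). Slc2a9 and Galm had passed the filter through the group in which they were high. Pdpr missed the threshold with length and GC offsets (adjusted p = 0.0779), and none of the 6 was called without Myc_Utx 2A, 2B or 2D or Myc_p53 3. Of 13 glycogen genes tested, edgeR called 0, with Gyg nearest among those higher (log2 fold change 0.97, adjusted p = 0.0515). DESeq2 called 2 of 17 higher and 2 lower, against 9.17% and 11.3% of all genes.

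Known regulators and targets of hypoxia split in both directions. Hif1a, the oxygen-sensitive subunit, lay at 187.5 to 249.9 and 174.4 to 228.9 CPM (log2 fold change 0.03, adjusted p = 0.896, edgeR). Hif1an, which inhibits Hif1a, was lower in every Myc_Utx line, with 43.5, 52.0 and 42.1 CPM against 84.8, 78.2 and 85.6 CPM (log2 fold change -0.85 ± 0.14, adjusted p = 0.0185). Among 24 listed regulators, of which 23 were tested, 2 were called higher and 2 lower, all named above, against 6.99% and 7.69% of all genes tested. Of 20 hypoxia targets tested, including Slc2a1, Pfkfb3, Pfkfb4 and Pdk1 of the present set, 0 were called higher and 2 lower, beside the same background, and their median log2 fold change was -0.04. Those lower were Ndrg1 (log2 fold change -1.24, adjusted p = 0.0427) and Angptl4 (-4.82, adjusted p = 0.0364), the latter having passed the filter through the Myc_p53 lines alone. DESeq2 called 3 of 21 hypoxia targets higher (Bnip3, Ankrd37 and Higd1a) and 3 lower, against 9.17% and 11.3% of all genes. Ndrg1, Hnrnpa1 and Mlxipl missed the threshold with length and GC offsets (adjusted p = 0.0759, 0.0561 and 0.0523). Counts of the Myc gene overlapped between the groups, which both carried a Myc transgene (log2 fold change -0.16, adjusted p = 0.667, edgeR). How much of these counts came from the transgene was not tested.

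**Figure D5:**
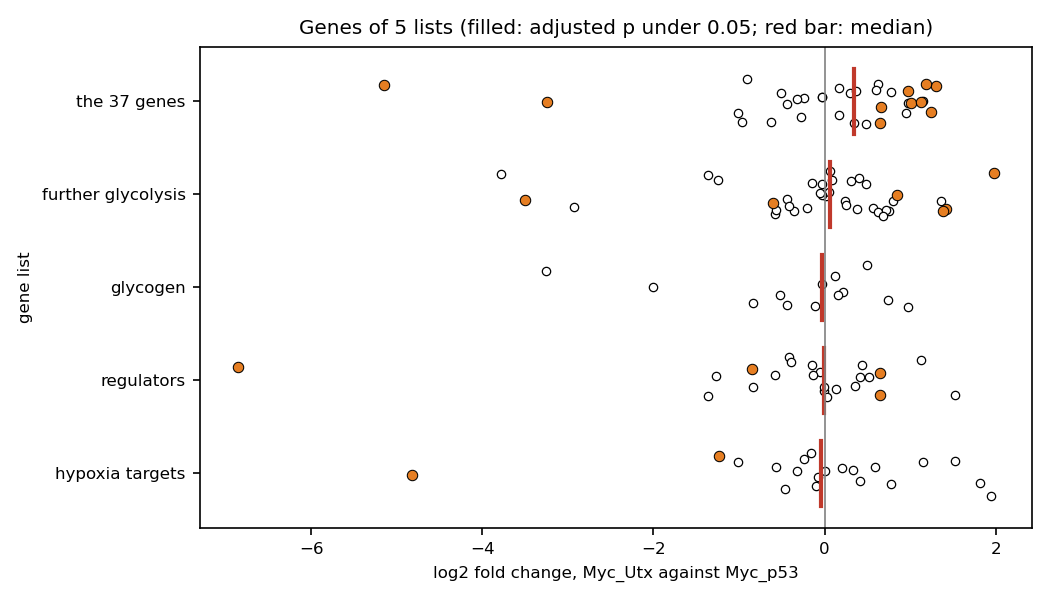
log2 fold change of the tested genes of 5 lists, 1 point per gene, filled for an adjusted p under 0.05 in edgeR, with a red bar at the median of each list. The glycolysis and lactate export genes have the median furthest above 0, at 0.34, and the other lists have medians between -0.04 and 0.07.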

How the data were processed

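Transcripts were measured by RNA sequencing in 6 cell lines. Raw counts of reads per Ensembl gene were deposited without normalization, with a length that equals the union of GENCODE M21 exons for 95.3% of genes. The submitters' processing notes name Trimmomatic 0.36, STAR 2.5.3a, featureCounts 1.6.3, DESeq2 1.20.0 and GRCm38/mm10; whether strand was used is not given in the sources used here. The methods of the study name HTSeq in place of featureCounts and a human build for this experiment.

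Lines were grouped by genotype. In R 4.3.3, edgeR 4.0.16 kept 11510 genes by filterByExpr (minimum count 10), scaled them with TMM and compared groups by its quasi-likelihood F test, with p-values adjusted after Benjamini and Hochberg over all of them. Standard errors were obtained from F and the log2 fold change. Isozyme shares are CPM per kilobase, compared with two-sided exact permutation tests over lines. The fit was tested on simulated data. Alternatives were other filters and scalings, length and GC offsets, DESeq2 1.42.0, leaving out each line and, chosen after seeing the data, principal transcript lengths and count ratios without each line. All genes of the set were named, with listed genes past the threshold, further isozymes and a check of the labels; Ptbp1, Bsg, Hif1a, Gyg, Bnip3, Ankrd37, Higd1a and the markers were added after their values were seen. The members and lists were chosen with earlier results of these data known. Some listed genes are not reported here.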

Additional observations from a re-analysis of the deposited data

How the results depend on the processing

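No paired analysis was possible because the groups share no replicate numbers. With a line left out, 0 to 8 genes of the set were called higher and 0 to 3 lower, 3 to 836 of all genes higher and 1 to 1117 lower, and 0 to 4 of the further sugar genes in each direction. The genes of the set called lower numbered 4 with no filter, 1 with at least 10 counts in every line, since Eno2 and Slc16a3 then drop out, and 5 with DESeq2. DESeq2 called 1270 of all genes higher and 1565 lower (9.17% and 11.3%), and 9 and 5 of the 42 further sugar genes that it tested. Length and GC offsets gave 581 of all genes lower. The cause of these differences was not tested. Not dividing counts by length changed the difference in share to 8.90 points for Slc2a1, -7.03 for Slc2a3, 0.273 for Ldha and -0.273 for Ldhb, because lengths differ within these families. Signs changed only for uncalled genes, and not all of these were near 0. In the main fit the log2 fold change was -0.51 for Aldoc, -0.44 for Pdk2 and -0.32 for Pdk1. With length and GC offsets Eno3 had a log2 fold change of -0.0097 and Pcx of 0.026, and with no filter Pcx had 0.0016. With a line left out, Pfkfb4 ran from -0.43 to 0.019, Aldoc from -1.09 to 0.48, Eno3 from -0.52 to 0.50, Pdk1 from -0.60 to 0.46, Pdk2 from -0.76 to 0.037, Pdhb from -0.095 to 0.081, Pck2 from -0.083 to 0.46 and Pcx from -0.31 to 0.22. Principal transcript lengths moved no difference in share between the groups by more than the spread between lines, though the shares themselves moved, the Myc_Utx mean of Hk1 from 50.6% to 67.6%, and Pfkl then overlapped between the groups. Depth of 4656103 to 6937497 counts limits Pklr, Fbp1, Slc2a2 and Slc2a3.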
